A study of Caenorhabditis elegans with 2 samples.

Results

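The genes described here are those named for proteins of the cytosolic ribosome of Caenorhabditis elegans. The rule used only gene names and took, from the nuclear protein-coding genes of the WBcel235 annotation (chromosomes I to V, and X), every name that starts with rpl- (large subunit) or rps- (small subunit), which leaves out the mitochondrial mrpl- and mrps- genes. It gave 78 of 19973 protein-coding genes, 47 of the large and 31 of the small subunit by name. The rule takes in rpl-24.2, the relative of a yeast factor that binds pre-ribosomes. It leaves out 6 cytosolic ribosomal protein genes with other names, which are counted apart below. Binding of the nuclear hormone receptor NHR-2 was measured in whole mixed-stage embryos of pooled sexes by ChIP-seq, in which DNA crosslinked to a protein is precipitated with an antibody and sequenced. There were 2 libraries, biological replicates 1 and 2 of a single group, so no conditions could be compared. Both came from strain OP99, with the genotype unc-119(ed3) III; wgIs99, in which, per the labels, an integrated transgene targets nhr-2. One label describes an eGFP fusion of NHR-2 and another names nhr-2 as the antibody, so the labels do not settle which antibody was used. A single strain was used, and neither the control library named in the labels nor any library without the transgene was analysed here. Because whole embryos were used, weak binding in many cells and strong binding in few cells cannot be told apart.

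Ribosomal proteins assemble with ribosomal RNA into a large subunit, which joins amino acids and holds the exit tunnel of the new protein, and a small subunit, which reads the messenger RNA. Their genes are short, highly transcribed housekeeping genes, and an early embryo starts with ribosomes supplied by the mother. NHR-2 belongs to the zinc-finger receptor family whose vertebrate members include the steroid and thyroid hormone receptors, and many members of that family bind AGGTCA or closely related letters.

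Regions beneath 6 ribosomal protein peaks are printed here to show the DNA at the summits: 5 of the stronger peaks, chosen because their windows held recurring words, and the peak between the paired genes rps-14 and rpl-36, which held none. Each sequence holds the summit and 75 bases on either side of it, the summit being that of the thresholded list, from the RefSeq WBcel235 genome (build ce11), written 5′ to 3′ on the strand of the ribosomal protein gene (of rps-14 for the shared peak). Every one of the 6 summits lay in an intergenic stretch upstream of its gene. Capitals mark, on either strand, the words searched for in all peaks (AGGTCA, the letters GAGAGA, the E-box forms CAGGTG, with CAGCTG, with CACGTG) plus those picked after the sequences were seen (ACCGTA, with ACGGTA, with CAACGC, with CCTAAA, with CGTTGA). The reverse complement of ACGGTA overlaps the word ACCGTA within the longer TACCGTA, and the reverse complement of CGTTGA overlaps the word CAACGC within TCAACGC.
rpl-3, chrIII:3867513-3867663, plus strand: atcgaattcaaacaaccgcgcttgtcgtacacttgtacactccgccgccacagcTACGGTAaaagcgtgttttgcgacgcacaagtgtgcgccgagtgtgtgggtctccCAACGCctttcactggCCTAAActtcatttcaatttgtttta
rpl-11.2, chrX:2242905-2243055, minus strand: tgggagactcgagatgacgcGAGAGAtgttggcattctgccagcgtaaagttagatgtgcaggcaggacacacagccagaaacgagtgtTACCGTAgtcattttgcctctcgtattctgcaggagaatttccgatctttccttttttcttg
rps-23, chrIV:12391273-12391423, minus strand: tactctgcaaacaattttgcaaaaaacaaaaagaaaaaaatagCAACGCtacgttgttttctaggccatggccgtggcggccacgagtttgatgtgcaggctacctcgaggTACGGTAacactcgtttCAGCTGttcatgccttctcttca
rps-28, chrIV:1659210-1659360, plus strand: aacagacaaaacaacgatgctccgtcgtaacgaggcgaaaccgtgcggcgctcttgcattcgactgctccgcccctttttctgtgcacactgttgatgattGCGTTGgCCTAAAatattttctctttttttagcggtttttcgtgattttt
rpl-20, chrIV:4750025-4750175, minus strand: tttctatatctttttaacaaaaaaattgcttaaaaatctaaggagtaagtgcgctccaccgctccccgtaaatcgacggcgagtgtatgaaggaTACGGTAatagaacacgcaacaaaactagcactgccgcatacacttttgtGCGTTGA
rps-14 and rpl-36, chrIII:7179772-7179922, minus strand: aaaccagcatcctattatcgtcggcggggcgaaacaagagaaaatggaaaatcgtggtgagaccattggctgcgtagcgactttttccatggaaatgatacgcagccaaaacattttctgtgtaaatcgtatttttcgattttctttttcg

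A gene was called bound when the summit of a peak that the authors had thresholded by the irreproducible discovery rate, a comparison of ranks between replicates, lay between 1000 bp upstream and 200 bp downstream of its annotated 5′ end. Of the 78 ribosomal protein genes, 25 were bound, or 32.1% (95% exact interval 21.9 to 43.6), beside 4.16% of all protein-coding genes. A further 40 had only a candidate region, that is, a region of the authors' longer series list that is not in the thresholded list, and 13 had neither. Together 65 of 78 (83.3%, 73.2 to 90.8) had a candidate summit in the window, beside 37.9% of all protein-coding genes. The candidate summits in their windows were also more often thresholded: 24 of 78 (30.8%, 20.8 to 42.2) were, beside 664 of 8087 (8.21%, 7.62 to 8.83) in all promoter windows. The median signal of those candidates, the authors' enrichment score per region, was 36.1 in the ribosomal protein windows and 19.3 in all promoter windows. The intervals cover counting error over genes or regions only, and no test was made of the set, since it was proposed with results of these data in view.

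Members of both subunits were bound. The large subunit had 12 of 47 genes bound (25.5%, 13.9 to 40.4) and the small subunit 13 of 31 (41.9%, 24.6 to 60.9), and these intervals overlap widely. A candidate summit lay in the window of 38 of 47 large-subunit and 27 of 31 small-subunit genes. By chromosome, bound genes numbered 8 of 23 on I, 2 of 10 on II, 9 of 18 on III, 4 of 17 on IV, 1 of 8 on V and 1 of 2 on X. The share of all protein-coding genes bound was 5.66% on I, 3.83% on II, 5.61% on III, 3.05% on IV, 2.26% on V and 6.41% on X, below the ribosomal protein share on each. On II, V and X the interval of the ribosomal protein share reached down past the share of all genes, so no difference was detectable on those chromosomes.

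**Figure D1:**
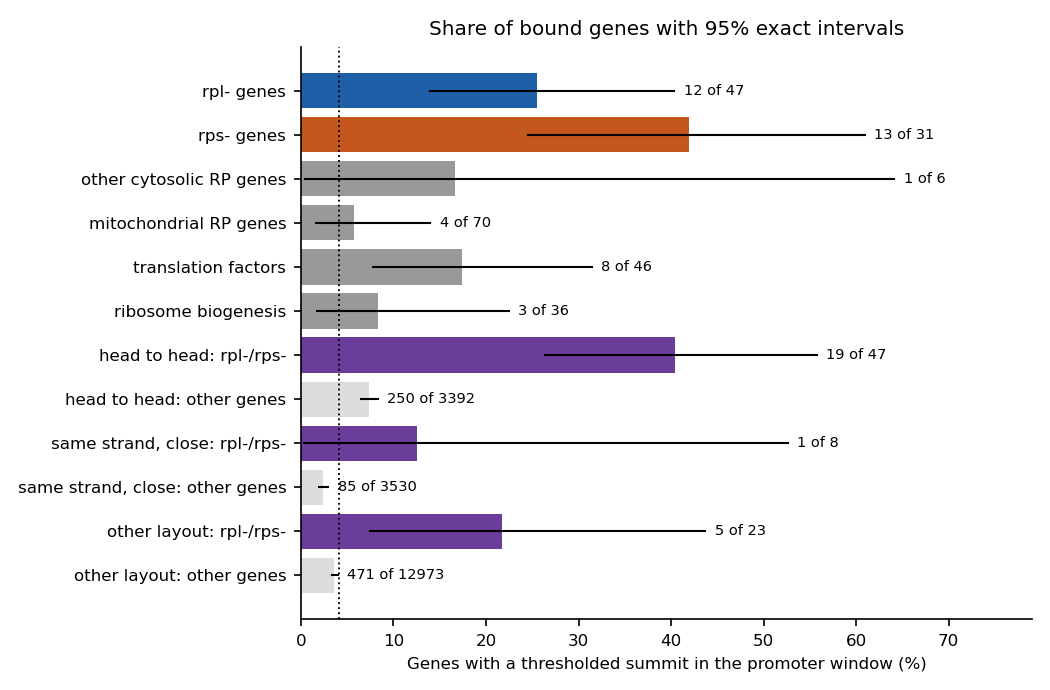
Share of genes with a thresholded summit in the promoter window (%) for the rpl- and rps- genes, related gene lists and layouts of the neighbouring gene; bars are shares, lines are 95% exact intervals, labels give bound genes of all genes in the set, and the dotted line is the 4.16% of all protein-coding genes. "Head to head" means an upstream neighbour on the other strand with its 5′ end within 1000 bp, and "same strand, close" an upstream neighbour on the same strand within 500 bp; the rpl- and rps- bars stand at 25.5% and 41.9%, above the line.

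The 25 bound genes had 24 distinct peaks, because rps-14 and rpl-36 share 1. Their signal ran from 57.2 to 145.3 in the series list, with a median of 87.1 and quartiles of 75.9 and 102. They ranked from 395 to 1600 among the 1861 thresholded peaks. The other 640 thresholded peaks in promoter windows had a median signal of 73.0 and quartiles of 59.3 and 103.5, and reached 1111. By signal quartile of the thresholded list, from the strongest down, the ribosomal protein peaks numbered 2, 11, 7 and 4, against 101, 144, 180 and 215 of the other promoter peaks. Most ribosomal protein peaks thus stood in the middle of the list, with few at either end. Peaks were 380 bp wide except those of rps-20 (184 bp) and rpl-3 (109 bp).

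Among the large-subunit genes the strongest peak was at rpl-3, whose protein reaches the peptidyl transferase centre in yeast and human ribosomes. It lay on chromosome III at 3867527 to 3867635, its summit was 266 bp upstream, and it had a series signal of 143.5 and signals of 74.1 in replicate 1 (rank 473 of 30000 candidate regions) and 66.0 in replicate 2 (rank 404). The peak of rpl-11.2 followed, on X at 2242790 to 2243169, with a series signal of 115.9, 67.6 in replicate 1 (rank 551) and 58.7 in replicate 2 (rank 516), 362 bp upstream. Both genes stood high in both replicates. Whether the 2 replicate lists share a scale of signal is not known here, so the order of signals in a replicate, not its level, is set against the other. The protein of rpl-11.2 and that of rpl-5 bind 5S ribosomal RNA together in yeast and human cells. At rpl-5 the series signal was 87.4, with 48.7 in replicate 1 (rank 885) and 39.8 in replicate 2 (rank 980), and the summit lay 393 bp upstream, inside 2 overlapping ncRNA genes, F54C9.16 and F54C9.17.

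The large-subunit peaks of rpl-15, rpl-20, rpl-28, rpl-35 and rpl-31 were of middle strength. At rpl-15 the series signal was 99.2, with 47.0 in replicate 1 (rank 944) and 44.9 in replicate 2 (rank 791), 398 bp upstream. At rpl-20 it was 96.9, with 43.4 (rank 1061) and 60.5 (rank 487) in replicates 1 and 2, 322 bp upstream. These 2 peaks on chromosome IV thus ranked higher in replicate 2 than in replicate 1. At rpl-28 the series signal was 86.9, with 47.7 (rank 922) and 36.2 (rank 1169), 340 bp upstream. At rpl-35, whose protein lies near the exit tunnel in yeast, it was 82.7, with 44.4 (rank 1020) and 39.2 (rank 1007), 459 bp upstream. At rpl-31, whose protein also lines the tunnel exit in yeast, it was 79.6, with 43.9 (rank 1041) and 35.9 (rank 1189), 276 bp upstream. For rpl-28 and rpl-31 the order was the opposite, with the higher rank in replicate 1, and rpl-35 ranked about alike in both.

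Peaks at the remaining large-subunit genes were weaker. At rpl-24.2, which is the relative of a yeast factor that binds pre-ribosomes, the series signal was 64.7, with 38.1 in replicate 1 (rank 1272) and 27.5 in replicate 2 (rank 1971), and the summit lay 161 bp upstream in an intron of C03D6.1. At rpl-43 the signal was 63.1, with 24.9 (rank 2301) and 36.9 (rank 1126), 747 bp upstream, the farthest of all. At rpl-41.1, which encodes the smallest ribosomal protein, it was 57.2, with 30.4 (rank 1750) and 27.5 (rank 1982), 372 bp upstream, the lowest signal among the bound genes. Each of these 3 fell outside the 1861 strongest candidate regions of at least 1 replicate. The peak shared by rpl-36 and rps-14 had a series signal of 58.1, with 33.1 (rank 1557) in replicate 1 and 20.2 (rank 4295) in replicate 2, the lowest replicate rank of any ribosomal protein peak.

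In the small subunit the strongest peak, and the strongest of all 24, was at rps-20, on chromosome I at 14469246 to 14469429, 263 bp upstream. Its series signal was 145.3, with 74.9 in each of replicates 1 (rank 464) and 2 (rank 320). Next were rps-26, whose protein sits at the exit of the messenger RNA channel in yeast, and rps-19, whose human counterpart is mutated in Diamond-Blackfan anaemia. At rps-26 the series signal was 103.7, with 51.2 in both replicate 1 (rank 819) and replicate 2 (rank 642), 379 bp upstream. At rps-19 it was 103.5, with 43.5 (rank 1055) and 59.1 (rank 506), 293 bp upstream. All 3 lie on chromosome I and ranked higher in replicate 2.

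Near the decoding centre, where the small subunit checks the fit of transfer RNA, lies the protein of rps-23 in yeast and human ribosomes. Its gene had a series signal of 102.6, with 41.3 in replicate 1 (rank 1139) and 58.8 in replicate 2 (rank 511), 295 bp upstream. At rps-28 the series signal was 101.8, with 48.0 (rank 908) and 52.7 (rank 610), 406 bp upstream. Both stood in the second signal quartile of the thresholded list. At rps-13 the signal was 90.1, with 56.8 (rank 717) and 33.4 (rank 1339), 249 bp upstream. At rps-12 it was 87.3, with 48.1 (rank 905) and 42.5 (rank 884), 144 bp upstream, the nearest of all summits. The peak of rps-13 ranked higher in replicate 1 and that of rps-12 nearly alike in both.

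The other small-subunit peaks had signals under 80 in the series list. At rps-15 the signal was 77.0, with 33.8 in replicate 1 (rank 1510) and 38.5 in replicate 2 (rank 1046), 380 bp upstream. At rps-3, whose protein forms part of the entry of the messenger RNA channel in yeast, it was 76.8, with 35.2 (rank 1432) and 43.5 (rank 853), 382 bp upstream. At rps-1 it was 76.5, with 40.9 (rank 1152) and 36.1 (rank 1182), 250 bp upstream and inside the ncRNA gene F56F3.10. These 3 differed by less than 1 unit of signal in the series list. At rps-17 the signal was 74.2, with 39.3 (rank 1224) and 34.5 (rank 1274), 202 bp upstream. At rps-22 it was 61.6, with 27.0 (rank 2044) and 34.9 (rank 1248), 152 bp upstream. Replicate 1 alone would have left rps-22 outside its 1861 strongest regions. Of all 24 summits, 21 were intergenic, 2 lay in ncRNA genes and 1 in an intron. The share in an RNA gene (8.33%) was near that of other promoter peaks, 53 of 640 (8.28%). Intergenic and intronic summits were not counted for other promoter peaks.

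**Figure D2:**
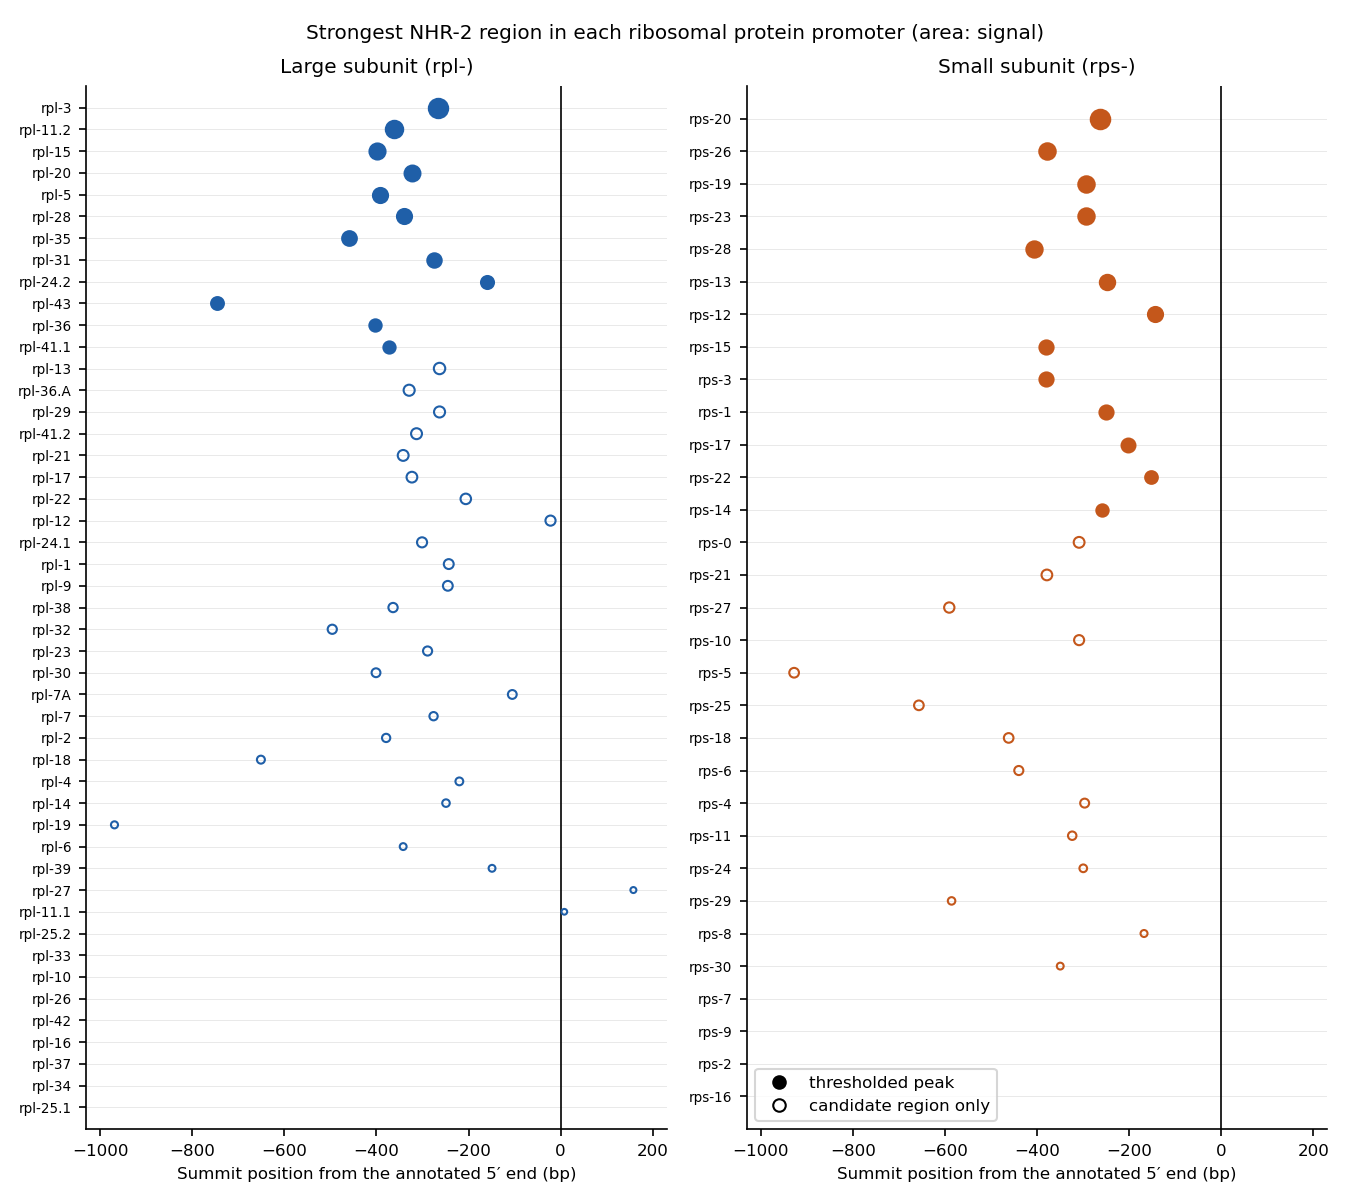
Position of the strongest series region in the promoter window of each rpl- gene (left) and rps- gene (right), in bp from the annotated 5′ end (negative is upstream), with filled points for thresholded peaks, open points for candidate regions only, and point area proportional to signal. Genes run from the strongest signal at the top to those with no region at the bottom; the filled points lie between 144 and 747 bp upstream.

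Just below the thresholded list stood rpl-13, with a series signal of 49.95 (rank 1948), and just inside it rpl-41.1, at 57.2 (rank 1600). At rpl-13 the candidate ranked 2742 in replicate 1 and 2851 in replicate 2, 263 bp upstream. The next strongest candidates were those of rpl-36.A (47.1), rpl-29 (47.0), rpl-41.2 (45.8), rpl-21 (45.3), rps-0 (44.9), rpl-17 (44.2), rps-21 (44.1), rpl-22 (42.4) and rps-27 (40.9). Over the 40 genes with a candidate only, the signal ran from 12.5 to 49.95 with a median of 32.2, and 13 of them ranked within the 3000 strongest series regions. Counted to that depth, bound genes included, 48.7% of ribosomal protein genes had a summit in the window, beside 7.74% of all protein-coding genes. Signal therefore fell off gradually through the family, and no gap parted bound from unbound genes beyond that between rpl-13 and rpl-41.1.

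Paralogues had unequal signals. The peak of rpl-11.2 had a series signal of 115.9, while the only candidate of rpl-11.1 had 12.5 (rank 28467), with a summit 8 bp downstream of the 5′ end, a rank of 19630 in replicate 1 and no region in replicate 2. At rpl-24.2 the signal was 64.7 and at rpl-24.1 it was 39.0 (rank 4428 in replicate 1 and 3262 in replicate 2), at a candidate summit shared with rps-10. The pair rpl-41.1 and rpl-41.2 had 57.2 and 45.8. For rpl-41.2 there was no region in replicate 1 and one of signal 40.6 (rank 951) in replicate 2. Neither rpl-25.1 nor rpl-25.2 had a series region in the window. For rpl-11 the bound gene ranked above the other in replicate 1 and alone had a region in replicate 2. For rpl-24 the bound gene ranked above the other in both replicates, while for rpl-41 the order turned between replicates. How reads matching more than 1 place in the genome were treated is not stated.

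No series region lay in the window of 13 genes, namely rpl-10, rpl-16, rpl-25.1, rpl-25.2, rpl-26, rpl-33, rpl-34, rpl-37, rpl-42, rps-2, rps-7, rps-9 and rps-16. For 5 of them, rpl-10, rpl-16, rpl-42, rps-9 and rps-16, neither replicate list had one either. There were 4 with a region in replicate 1 only, 1 in replicate 2 only and 3 in both. The strongest of these was at rpl-33, with a signal of 56.25 in replicate 1 (rank 726), in a region 100 bp wide with its summit 387 bp upstream, and none in replicate 2.

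Bound genes had their summits in a narrow band upstream. Distances from the nearest summit ran from 144 to 747 bp upstream, with a median of 322 bp and quartiles of 259 and 382 bp, and none lay downstream. Of the 25 bound genes, 24 (96.0%) had it between 100 and 500 bp upstream, a band chosen after the distances were seen. Of the other 806 bound genes, 448 (55.6%) had it in that band, with a median of 264.5 bp upstream and quartiles of 134 and 501 bp, and 45 had it downstream. Ribosomal protein genes with a candidate only had a median of 298.5 bp and 31 of 40 (77.5%) in the band, against 240.0 bp and 42.4% for other genes with a candidate only. None of the 78 genes had a thresholded summit within its body. The matching share of other protein-coding genes was not counted. The ribosomal protein genes are also short, with a median of 753.5 bp beside 2033 bp, so that count cannot be set against other genes.

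Most of these summits lay between diverging genes. Of the 25 bound genes, 20 (80.0%, 59.3 to 93.2) shared their summit with the promoter window of another protein-coding gene, beside 341 of 806 (42.3%, 38.9 to 45.8) among other bound genes. For 19 the neighbour was head to head, which made 20 gene pairs counted from the ribosomal protein gene, and in 18 of these the neighbour was not itself a ribosomal protein gene. The 5′ ends were 266 to 1164 bp apart, with a median of 563 bp. The widest pair, rps-14 with ndab-2, is not of adjacent genes, since rpl-36 lies between them. The summit lay a median of 308.5 bp from the ribosomal protein gene and 194.5 bp from the neighbour, and was nearer the neighbour in 12 of 20 pairs. The pair rps-14 and rpl-36 was counted from each side, so rps-14 is the nearer neighbour when counted from rpl-36. Their summit also entered with ndab-2, so these figures hold it more than once. A summit in a shared window cannot be assigned to either gene from these data.

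The neighbours had varied functions. At the strongest peak, rps-20 faced ekl-4, with 263 bp from the summit to rps-20 and 134 bp to ekl-4. At rps-19 the neighbour was hsr-9, the relative of the human DNA damage protein 53BP1, with 293 and 152 bp. At rps-26 it was tmem-107, a protein of the ciliary transition zone, with 379 and 78 bp. In all 3 the summit was nearer the gene that is not ribosomal. The peak of rpl-31 lay 276 bp from it and 29 bp from sac-2, the nearest approach to any neighbour. At rpl-28 the neighbour was mrpl-49, a mitochondrial ribosomal protein gene, 179 bp from the summit against 340 bp for rpl-28. At rps-22 it was polh-1, which encodes a DNA polymerase that copies damaged DNA, with 152 bp to rps-22 and 114 bp to polh-1. Peaks also lay nearer nfx-1 than rps-13, nearer dpm-3 than rps-23, nearer sna-3 than rps-3, nearer Y17G9B.5 than rpl-20 and nearer Y48B6A.1 than rpl-43.

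In the other head-to-head pairs the summit was nearer the ribosomal protein gene. It lay 250 bp from rps-1 and 518 bp from ifet-1, the relative of the human eIF4E transporter. It was 144 bp from rps-12 and 149 bp from ska-3, a spindle and kinetochore protein, so it lay midway. It was 393 bp from rpl-5 and 446 bp from the collagen gene col-38. The same held for rpl-15 against K11H12.8, rpl-41.1 against M04F3.5 and rps-15 against F36A2.9. Between rps-14 and rpl-36, which face each other over 663 bp, it was 259 bp from rps-14 and 404 bp from rpl-36, and the window of ndab-2 held it too. At rps-28 the sharing gene, Y41D4B.4, was on the same strand. The peaks of rpl-3, rpl-11.2, rpl-24.2, rpl-35 and rps-17 were in no other coding gene's window, so the 2 strongest large-subunit peaks were unshared. Among candidate regions, rps-10 and rpl-24.1 shared one of signal 39.0 and rpl-39 and rps-30 one of 18.0.

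**Figure D3:**
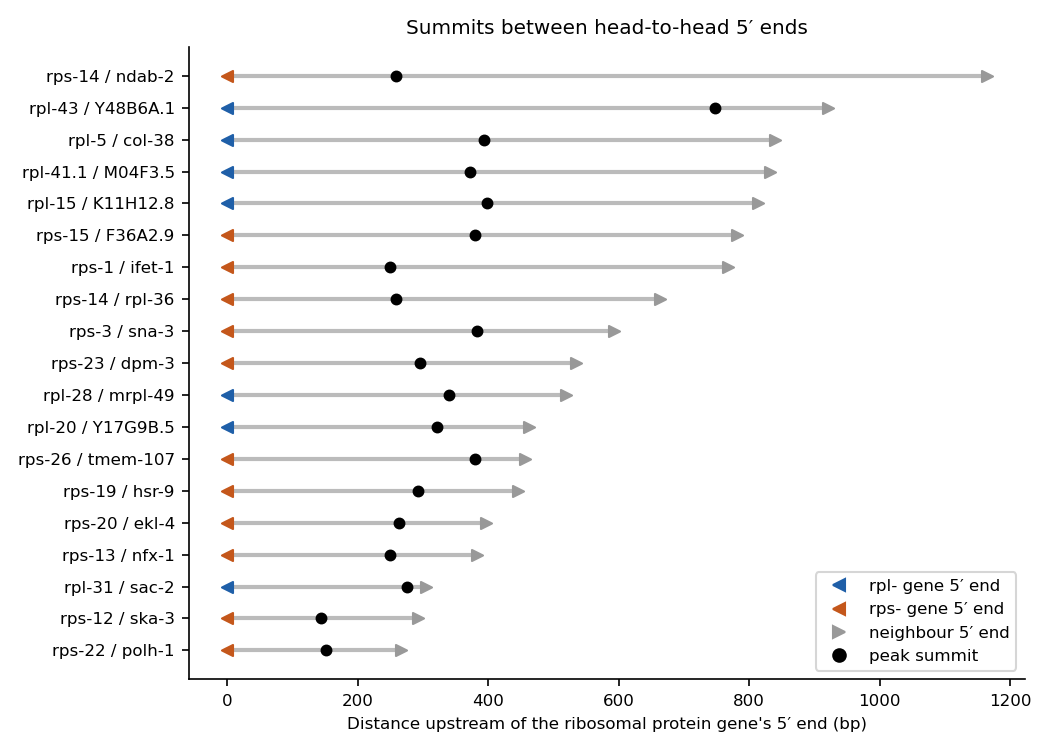
Position of the summit (black point) between the 5′ end of each bound ribosomal protein gene (coloured triangle at 0) and that of its head-to-head neighbour (grey triangle), as distance upstream of the ribosomal protein gene in bp. The pair rps-14 and rpl-36 is drawn once. The summits lie between the ends, 29 to 905 bp from the neighbour, and the 905 bp is to ndab-2, which is separated from rps-14 by rpl-36.

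Head-to-head layout is common in this family. Of the 78 genes, 47 (60.3%) had a head-to-head coding neighbour within 1000 bp, beside 17.1% of other protein-coding genes. Of those 47, 19 were bound (40.4%, 26.4 to 55.7), beside 250 of 3392 (7.37%, 6.51 to 8.30) other genes in that layout. Close behind a same-strand neighbour, 1 of 8 ribosomal protein genes was bound, beside 85 of 3530 (2.41%) other genes. In the remaining layouts, 5 of 23 were bound (21.7%, 7.46 to 43.7), beside 471 of 12973 (3.63%). The share of ribosomal protein genes bound was therefore above that of other genes within the head-to-head layout and within the remaining layouts, and 1 of 8 settles nothing for the close same-strand layout (interval 0.316 to 52.6).

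Each peak was then followed in the replicate lists. All 24 peaks overlapped a candidate region in both replicate lists. Of them, 19 (79.2%) were among the 1861 strongest regions of both, beside 381 of 640 (59.5%) other promoter peaks and 68.3% of all nuclear peaks. More of the other promoter peaks stood in the lowest signal quartile of the thresholded list (33.6% against 16.7%). The part of signal strength in these shares was not tested. Ranks ran from 464 to 2301 in replicate 1, with a median of 1048, and from 320 to 4295 in replicate 2, with a median of 993.5. Summits of the same peak lay a median of 22.5 bp apart between replicates and at most 88 bp, beside a median of 30.0 bp for other promoter peaks. Over the 24 peaks, log2 signals in the replicates had a Pearson correlation of 0.64 and a Spearman correlation of 0.56, given as a description because the peaks share their libraries and were chosen by both replicates.

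Calling genes from the 1861 strongest regions of replicate 1 alone gave 26 bound ribosomal protein genes (33.3%, 23.1 to 44.9), beside 3.8% of all protein-coding genes. Replicate 2 alone gave 25 (32.1%), beside 4.55%. Of the 26, 23 were also bound in the thresholded list, and the 3 others were rpl-9, rpl-29 and rpl-33. Of the 25, 21 were also bound, and the 4 others were rpl-12, rpl-21, rpl-38 and rpl-41.2. The 2 sets had 19 genes in common, all of them in the thresholded set, which was itself chosen by ranks in both replicates. That left 7 genes called by replicate 1 and not by replicate 2, and 6 by replicate 2 and not by replicate 1. The matching overlap over all protein-coding genes is not given, so these counts cannot be set against other genes.

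**Figure D4:**
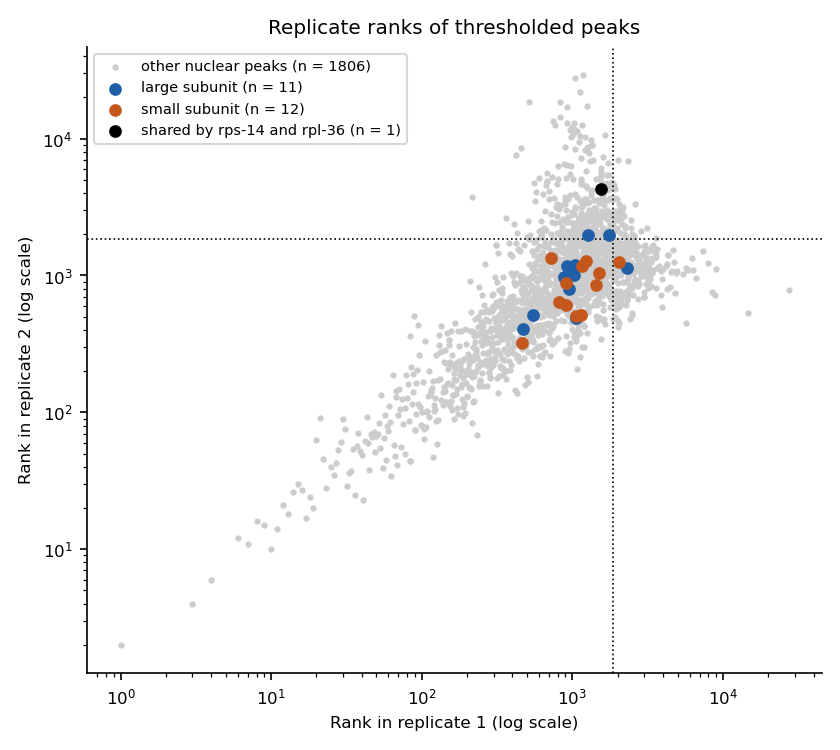
Rank by signal in the replicate 1 list (horizontal) and replicate 2 list (vertical) of thresholded nuclear peaks that overlap a region in both lists, both axes logarithmic, with ribosomal protein peaks coloured by subunit and the dotted lines at rank 1861. Ribosomal protein peaks lie between ranks 464 and 2301 in replicate 1 and between 320 and 4295 in replicate 2, away from the strongest peaks.

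Words near the summits were counted in the ribosomal protein peaks and in other promoter peaks. AGGTCA, searched within 75 bp of the summit on both strands, was in 0 of 24 ribosomal protein peaks (interval 0 to 14.2%), beside 110 of 640 (17.2%, 14.3 to 20.3) other promoter peaks and 17.2% of all nuclear peaks. GAGAGA was in 3 of 24 (12.5%, 2.66 to 32.4), those of rpl-11.2, rps-1 and rpl-24.2, beside 30.9% of other promoter peaks, within that interval. That reading depended on the width searched: within 50 bp of the summit GAGAGA was in 1 of 24 (4.17%, 0.105 to 21.1), beside 23.3%, and within 150 bp in 4 of 24 (16.7%, 4.74 to 37.4), beside 45.6%, and the share in other promoter peaks lay above the interval at both widths. CAGCTG was in 1, that of rps-23, beside 6.25%, and CAGGTG and CACGTG were in none, beside 9.22% and 3.59%. Any of the 5 words was in 4 of 24 (16.7%), beside 356 of 640 (55.6%). Within 75 bp the upper limit for AGGTCA stands just below the share in other promoter peaks. Within 50 bp that share was 13.3%, inside the interval of 0 to 14.2%. A word's absence from these windows says nothing about what the receptor can bind.

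Words of 6 bases were then sought that were in 9 or more of the 24 peaks and in under 10% of other promoter peaks, and 5 of 2080 met this. They were chosen on these peaks, so their shares are a description. CCTAAA was in 10 of 24 (41.7%), beside 3.59% of other promoter peaks, and ACCGTA in 10, beside 8.59%. ACGGTA was in 9 (37.5%), beside 5.62%, CAACGC in 9, beside 6.25%, and CGTTGA in 9, beside 6.41%. The longer TACCGTA was in 9 of 24, beside 21 of 640 (3.28%), and 5 of the 6 printed sequences hold at least 1 of these words, as chosen. At least 1 of the 5 words was in 19 of 24 peaks, and the peaks of rpl-35, rps-15, rpl-24.2, rpl-41.1 and the pair rps-14 and rpl-36 had none.

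The 53 unbound ribosomal protein genes were not used to choose these words. In a window of the same width centred 300 bp upstream of their 5′ ends, ACCGTA was in 15 (28.3%, 16.8 to 42.4), beside 4.50% of protein-coding genes outside the family. CCTAAA was in 11 (20.8%, 10.8 to 34.1), beside 7.30%. The shares for TACCGTA were 5 of 53 (9.43%, 3.13 to 20.7) and 2.35%, for CGTTGA 7 of 53 (13.2%) and 4.81%, for ACGGTA 6 of 53 (11.3%) and 4.12%, and for CAACGC 2 of 53 (3.77%) and 2.96%. For CAACGC the interval included the share in other genes, and for the other words it lay above. In the same window, ACCGTA was in 24.0% of bound ribosomal protein genes, CCTAAA in 24.0% and CGTTGA in 4 of 25, shares near those of unbound ones. At least 1 of the 5 words of 6 bases was in 14 of 25 bound (56%) and 30 of 53 unbound genes (56.6%). Shares were higher in bound genes for ACGGTA (6 of 25 beside 6 of 53), TACCGTA (5 of 25 beside 5 of 53) and CAACGC (5 of 25 beside 2 of 53). For each of the words with a higher share, the intervals of bound and unbound genes overlapped. In bound genes the window can overlap the peaks on which the words were chosen. These windows had 40.5% G and C in the unbound ribosomal protein genes and 34.4% in the other genes, and the part of base composition in these shares was not tested. At the peaks the content was closer, 43.2% beside 45.7% of other promoter peaks.

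The same count was made in related gene lists, with no test of their differences. Among 6 cytosolic ribosomal protein genes with other names (rla-0, rla-1, rla-2, ubl-1, ubq-2 and rack-1), 1 was bound (16.7%, 0.421 to 64.1). That interval included the 4.16% of all protein-coding genes. The bound gene was ubl-1, which encodes a ubiquitin-like protein fused to a ribosomal protein, with a signal of 77.0 and a summit 235 bp upstream. Mitochondrial ribosomal protein genes had 4 of 70 bound (5.71%, 1.58 to 13.99), a share near that of all protein-coding genes. Those were mrpl-49 (86.9), at the peak it shares with rpl-28, mrpl-44 (78.4), mrpl-23 (59.0) and mrps-7 (53.1). The interval for the mitochondrial genes lay below that for the cytosolic rpl- and rps- genes, while those of the other 3 lists overlapped it.

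Translation factors had 8 of 46 bound (17.4%, 7.82 to 31.4), an interval above the 4.16% of all protein-coding genes. The strongest were the elongation factor genes eef-1A.2 (235), eef-1A.1 (145.6) and eef-2 (123), and iff-2 (158), a relative of eIF5A, and these 4 had signals above most ribosomal protein peaks. Ribosome biogenesis genes had 3 of 36 bound (8.33%, 1.75 to 22.5), an interval that included the 4.16%. They were fib-1 (72.4), the fibrillarin gene, rpl-24.2 (64.7), which is also counted among the ribosomal protein genes, and rpac-19 (59.5). A candidate summit lay in the window of 64.3% of the mitochondrial ribosomal protein genes, 73.9% of the translation factors and 77.8% of the biogenesis genes, beside 83.3% of the cytosolic ribosomal protein genes. The order of the groups by candidate regions and by thresholded peaks was not the same, since the biogenesis genes stood above the translation factors in the first and below them in the second.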

How the data were processed

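The 2 libraries were summarised by the authors as region lists on build ce11: a candidate list per replicate and one of the series, of 30000 regions each, made from ChIP alignments and a control, and a thresholded list of 1861 peaks (1843 nuclear), per the texts deposited with the libraries. The signal in the deposited lists is the authors' enrichment score per region. The −log10 q in the deposited lists was not used for ranking. Which aligner and peak caller were used, in which versions and at which threshold, is not given in the sources used here. The lists hold no read numbers, so depth is unknown. A second set of the lists, on build ce10, was not used.

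Genes were those of Ensembl release 115, with 5′ ends of gene records, and coordinates are 1-based. Counting and overlaps (1 bp) were done in Python 3.11.15 with pandas 2.3.3 and checked on planted summits. Where the windows of several genes held a summit, it was counted for each of them. Intervals are 95% Clopper-Pearson intervals (scipy 1.17.1). Nothing was tested, because there is 1 group. Genes named are all bound members, the 10 unbound ones with the strongest candidate, paralogues, neighbours at a summit, and up to 4 bound genes of each related list; other genes were named after their values were seen. The ribosome biogenesis names nol-1, nol-2, nol-5 and bop-1 matched no gene. Members and lists were chosen with earlier results of these data known. Alternatives covered window, threshold, each replicate alone, overlap, gene assignment and transcript ends.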

Additional observations from a re-analysis of the deposited data

How the results depend on the processing

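The number of bound ribosomal protein genes stayed between 23 and 27 with narrower (24) or wider (27) windows, with peaks among the 3000 strongest of both replicates (23), with any overlapping base (25), with any transcript 5′ end (25) and with either replicate alone (26 and 25). Among the strongest 930 thresholded peaks it fell to 13 (6 large-subunit, 7 small-subunit; 13 distinct peaks, 11 genes sharing a summit), while the share of all protein-coding genes fell to 1.55%. With the 3000 strongest series regions it was 38 (21 large-subunit), beside 7.74% of all genes. Giving each summit only to the coding gene with the nearest 5′ end left 13 (7 large-subunit, 6 small-subunit; 13 peaks, none, 0 by construction, shared), beside 3.24% of all genes; the 13 were rpl-3, rpl-5, rpl-11.2, rpl-15, rpl-24.2, rpl-35, rpl-41.1, rps-1, rps-12, rps-14, rps-15, rps-17 and rps-28. In each of these 3 settings the ribosomal protein share (16.7%, 48.7% and 16.7%) was above that of all genes. The median summit distance was 285.5 bp with replicate 1 alone and 313 bp with replicate 2 alone, against 322 bp, and 362 bp under nearest-gene assignment; the cause was not tested. AGGTCA was in 0 ribosomal protein peaks within 50, 75 and 150 bp of the summit and in the strongest 930. Other promoter peaks had it in 13.3%, 17.2%, 22.5% and 25.3%. The 50 bp share lay inside the interval of 0 to 14.2%, so the contrast depended on the width searched. Only 13 ribosomal protein peaks were among the strongest 930, with an interval of 0 to 24.7%. GAGAGA was in 4.17%, 12.5% and 16.7% of ribosomal protein peaks at those widths and in 7.69% of the strongest 930. Other promoter peaks had it in 23.3%, 30.9%, 45.6% and 29.8%. With depth unknown, a missing region cannot be read as absent binding.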

Other observations

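Several features of the ribosomal protein genes that bear on how their messages are made were tabulated beside binding. TTNCAG, letters of the nematode splice acceptor, was within 20 bp before the start codon of 45 of 78 genes (57.7%), beside 27.2% of other protein-coding genes. Among bound ribosomal protein genes it was there in 13 of 25 (52.0%), and among unbound ones in 32 of 53 (60.4%). An annotated snoRNA, a guide for modification of ribosomal RNA, lay inside 13 of 78 genes (16.7%), beside 0.935% of other genes, and the shares were 16% of bound and 17.0% of unbound ribosomal protein genes. Gene length had a median of 753.5 bp, beside 2033 bp for other genes, and of 748 bp in bound and 754 bp in unbound ribosomal protein genes. These features marked the family, and bound and unbound genes had similar values of each. An RNA gene lay within 250 bp of the summit of 6 of 24 ribosomal protein peaks (25%), beside 106 of 640 (16.6%) other promoter peaks. The summit itself lay in an RNA gene in 2 of 24 (8.33%), beside 53 of 640 (8.28%).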
